A study of Mus musculus with 12 samples.

Results

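The 1 h response of isolated mitochondria was compared with the 1 h response of isolated nuclei, gene by gene, in the established mouse neural stem cell line C17.2. Per the labels, the line comes from a CD1 x C57BL/6 background, grew in DMEM/F12 with fetal bovine serum, and was switched to Knockout DMEM, GlutaMAX and the N2 supplement to start neural differentiation. All 6 groups carry the neural induction label, and they are mitochondria at 0, 1 and 2 h and nuclei at 0, 1 and 2 h after the change of medium, with 2 biological replicates each by the series' design, 12 libraries in all. No group kept in the old medium, or given it fresh, was sampled at 1 or 2 h, so the time since the change, the handling and the loss of serum cannot be told apart. The quantity reported is the log2 change from 0 to 1 h in mitochondria minus the log2 change from 0 to 1 h in nuclei, here called the difference of responses. It was taken for every gene with a read in at least 2 libraries, which was 21078 of the 35321 genes listed. A gene called lower had lost level in mitochondria relative to nuclei over the first hour, and a gene called higher had gained it. Values are log2 RPM (read counts scaled to the library's total) after quantile normalization between libraries, SE is that of the limma model, and p-values are limma's after Benjamini-Hochberg adjustment over all genes tested, with a threshold of 0.05.

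Most messenger RNAs are made in the nucleus and translated in the cytosol. Messages of secreted and membrane proteins are brought to the endoplasmic reticulum (ER) while they are being translated, because a hydrophobic signal peptide near the start of the growing protein binds the signal recognition particle. Messages of many mitochondrial proteins are translated on free ribosomes or near the mitochondrial surface, where the ER also makes contacts, while long non-coding RNAs such as Malat1 and Neat1 stay in the nucleus.

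Reads inside the listed genes numbered 4564148 to 9252152 per library. Replicates at 0 and 1 h differed by 9.79 to 13.4 times the variance of counting alone (chi-square per degree of freedom over genes), against 1.93 and 2.03 at 2 h. The pairs of 0 and 1 h also differ in a way that was found in the data. Replicate 1 of nuclei at 0 h and at 1 h and of mitochondria at 1 h, with replicate 2 of mitochondria at 0 h (side A), gave genes with processed pseudogene copies 2.90 to 3.09% of their reads, and the other 8 libraries (side B) gave them 4.81 to 5.38%. Each group of 0 and 1 h has 1 library on either side, so each side gives its own value of the difference. The split is in no label, and whether any replicate shared a culture is not given. Of 11 progenitor markers, 10 had a median of at least 10 reads, and Pax6 had 0 to 3. Of 7 neuronal markers, Tubb3 (144 to 351 reads) and Map2 (178 to 491 reads) reached that median, and Syt1, Dcx and Stmn2 had 0 reads, while Sox10, known from glia, was read in every library, as was Col1a1. Of the endothelial markers 0 of 3 reached a median of 10 reads, and of the microglial and blood markers 1 of 6. Of the fibroblast markers, Dcn and Lum had 0 to 6 reads over the 12 libraries. The summed RPM of the 5 fibroblast markers, nearly all of it Col1a1 and Col1a2, was 2790 to 2912 in mitochondria at 0 h and 1536 to 1546 at 1 h. In nuclei this sum was 2045 to 2046 and then 1373 to 1412. That of the 5 oligodendrocyte markers was 94.6 to 97.3 and then 92.9 to 99.8 in mitochondria, and 89.9 to 91.1 and then 56.2 to 57.7 in nuclei. That of the 11 progenitor markers was 750 to 796 and then 628 to 645 in mitochondria, and 733 to 739 and then 513 to 535 in nuclei. These sums are of the values as deposited, on which scale the median gene changed by -0.22 in mitochondria and -0.64 in nuclei (log2). The part of these movements in the results was not tested. Mitochondrially encoded transcripts (33 in the transcript table) made up 4.41% and 3.73% of FPKM in mitochondria at 0 h and 3.61% and 3.45% in nuclei, so by this measure the preparations lay close together. At 1 h the shares were 2.46% and 2.28% in mitochondria and 1.99% in the 1 nuclear library used on that scale. In bulk RNA of this kind, fewer organelles of a type in a preparation and less RNA per organelle cannot be told apart.

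The difference of responses passed the threshold for 257 genes, which is 1.22% of those tested. Of these, 188 (0.892%) were lower and 69 (0.327%) were higher. Among the 188 lower genes, 172 fell in mitochondria and none rose there, 10 rose in nuclei, and 178 did not pass in nuclei. Over all genes tested, 3.74% fell and 2.24% rose in mitochondria, and 0.816% fell and 1.01% rose in nuclei. The median change of the lower genes was -0.56 in mitochondria and 0.09 in nuclei. Among the 69 higher genes, 46 rose in mitochondria and 21 fell in nuclei, and the medians were 0.38 and -0.24. A rise or fall within 1 preparation is relative to the quantile scale and turns with it. With the values as deposited, the median gene changed by -0.22 in mitochondria and -0.64 in nuclei, 3781 genes fell and 148 rose in mitochondria, and 10118 fell and 107 rose in nuclei. On that scale the medians of the lower genes were -0.93 and -0.56, and those of the higher genes 0.01 and -0.89. The deposited values are scaled to the library's total, of which the listed genes held a changing share. For nuclei the 0 h libraries had 21.4% and 21.9% of it inside listed genes, and the 1 h libraries 14.0% and 13.9%. The mitochondrial shares were 21.2% and 18.9%, then 15.7% and 16.1%. The part of these shares in the deposited medians was not tested. Median centring gave 1141 falling and 583 rising in mitochondria, and 286 and 1732 in nuclei. Statements below on which preparation moved hold on the quantile scale, unless another is named. The plot of both effects places the lower genes along the zero line of nuclei, while the higher genes lie on the mitochondrial side of the diagonal. At this depth the median SE of the difference was 0.40, and 0.19 among genes above the median level, where 247 of the 257 lie. The outer limits of the called genes, -4.15 for the receptor Celsr2 and 5.06 for the predicted gene Gm43585, are both from genes below that level.

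**Figure D1:**
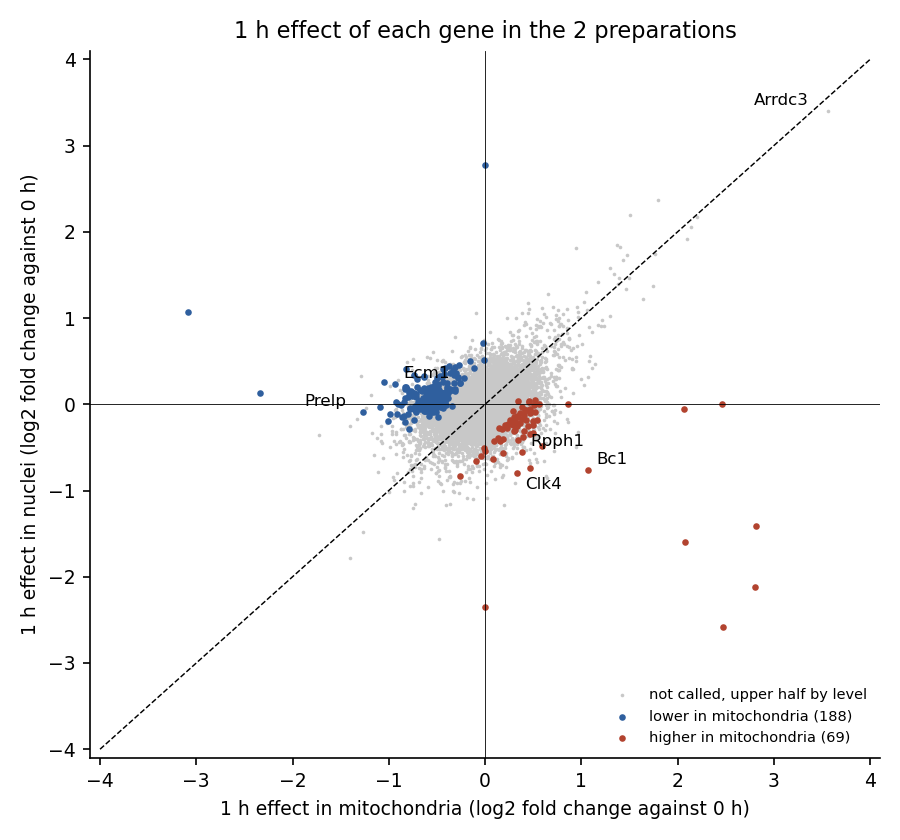
Change from 0 to 1 h of each gene in mitochondria (x axis) and in nuclei (y axis), both as log2 fold change after quantile normalization; each point is 1 gene, and the dashed line marks equal change. The 188 genes called lower lie left of the diagonal, mostly at a nuclear change near 0, and the 69 called higher lie to its right, while Arrdc3 sits near the diagonal at 3.57 and 3.40.

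The counts moved with the libraries and the model used. Leaving out mitochondria 0 h replicate 2 left 1 gene higher and 2 lower, leaving out nuclei 0 h replicate 2 left 2 and 3, and leaving out any other library of 0 or 1 h left 8 to 42 higher and 60 to 135 lower. With the 8 libraries of 0 and 1 h alone, 1 gene was higher and 2 were lower, whereas a term for the split with the same 8 libraries gave 144 and 304. The main fit takes its spread from the 2 h pairs as well. Those lay at 1.93 and 2.03 times the variance of counting, against 9.79 to 13.4 at 0 and 1 h, and their part in the counts was not tested. Of the 12 lower and 12 higher genes named below, 0 and 1 were still called without the first of these libraries, 1 and 2 without the second, and 1 and 1 with the 8 libraries alone. Scaling moved the balance: the values as deposited, where the median of all genes was 0.33, gave 1573 higher and 82 lower, and centring each library on its median, where it was -0.11, gave 70 higher and 691 lower.

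Among genes above the median level, the 12 with the most negative difference of responses were Fbn2 (-1.31), Ggt1 (-1.23), Prelp (-1.18), Ecm1 (-1.18), Cd82 (-1.06), Loxl4 (-1.03), Lgals3bp (-1.02), Robo1 (-1.0), Nucb1 (-1.0), Mfsd10 (-0.99), Cachd1 (-0.96) and Man2b2 (-0.95). These are proteins of the matrix, the cell surface and the secretory and lysosomal compartments: Fbn2 is a microfibril protein, Prelp a leucine-rich proteoglycan, Loxl4 a lysyl oxidase that cross-links collagen, Cd82 a tetraspanin, and Man2b2 a mannosidase. In all 12 both mitochondrial libraries of 1 h were below both of 0 h, and all 12 fell in mitochondria. None passed in nuclei, where both libraries of 1 h were above both of 0 h in 8 of them, although with the values as deposited all 12 had a nuclear change below 0.

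Ecm1, a secreted matrix glycoprotein (chr3:95734147-95739569, minus strand, GRCm38), stood at 4.55 and 4.61 in mitochondria at 0 h and at 3.66 and 3.63 at 1 h. In nuclei it stood at 3.77 and 3.95 and then at 4.06 and 4.12. The mitochondrial libraries were thus the highest at 0 h and the lowest at 1 h, with no overlap between the times in either preparation. The difference of responses was -1.18 ± 0.14 (SE, n = 2 libraries per group, limma adjusted p = 0.0078), from a fall of 0.94 in mitochondria and a nuclear value of 0.24 that did not pass. Robo1, the receptor of the axon guidance protein Slit (chr16:72308306-73046095), stood at 3.97 and 4.05 in mitochondria at 0 h and at 3.25 and 3.12 at 1 h, against 3.56 and 3.49 and then 3.82 and 3.59 in nuclei. Its nuclear libraries lay between the mitochondrial libraries of 0 h and those of 1 h. The difference was -1.0 ± 0.14 (limma adjusted p = 0.0095). Prelp (chr1:133910304-133921414) went from 3.74 and 3.89 to 2.79 and 2.30 in mitochondria and from 3.12 and 3.24 to 3.04 and 3.13 in nuclei, so the nuclear times overlapped and the mitochondrial times did not (difference -1.18 ± 0.21, limma adjusted p = 0.021). Nucb1, a calcium-binding protein of the Golgi, shares its stretch of the genome with Tulp2 on the other strand, and counting is not stated to use strand. It went from 4.82 and 4.98 to 4.2 and 4.19 in mitochondria and from 4.35 and 4.38 to 4.56 and 4.76 in nuclei. The times did not overlap in either preparation and moved apart in opposite directions, of which the mitochondrial fall passed and the nuclear value of 0.29 did not.

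**Figure D2:**
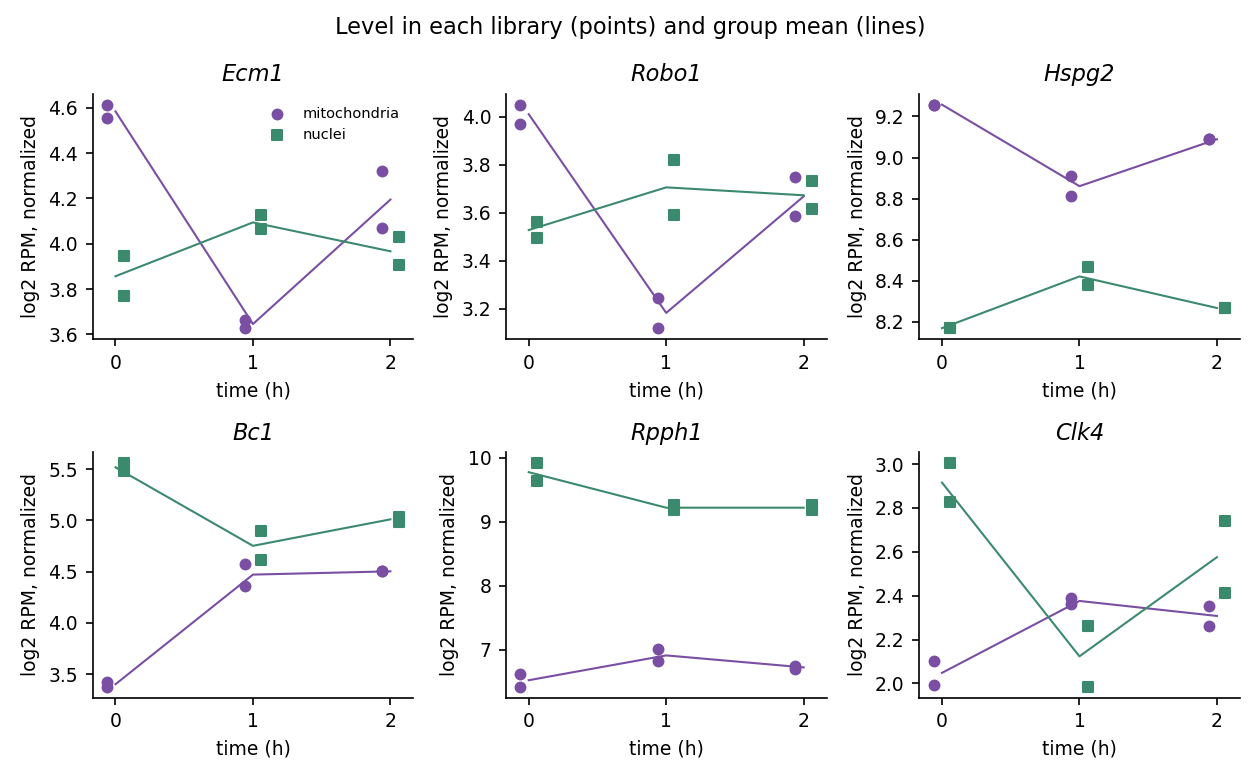
Level of 6 genes in each of the 12 libraries (points, log2 RPM after quantile normalization) against time in h, with lines through the group means, for mitochondria (circles) and nuclei (squares); the y axes differ and do not start at 0. Ecm1, Robo1 and Hspg2 dip in mitochondria at 1 h, while Bc1, Rpph1 and Clk4 are closer between the preparations at 1 h than at 0 h.

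The 5 genes of smallest p among the 12 whose protein begins with a hydrophobic run are shown by their first 120 coding bases, 5′ to 3′, because such a run is found in most of the lower genes. Sequences are GENCODE M21 transcripts on GRCm38. Capitals mark the 36 bases that encode the most hydrophobic run of 12 residues within the first 40, which in Ecm1 is residue 7 to 18. Memo1 and Clk4, from the higher genes, have no run past the threshold and are shown without capitals for comparison.
Ecm1: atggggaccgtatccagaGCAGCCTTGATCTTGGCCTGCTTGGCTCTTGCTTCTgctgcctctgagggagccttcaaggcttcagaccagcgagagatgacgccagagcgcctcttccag
Nucb1: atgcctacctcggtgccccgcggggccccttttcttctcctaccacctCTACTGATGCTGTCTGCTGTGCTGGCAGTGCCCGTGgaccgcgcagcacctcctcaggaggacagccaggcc
Lgals3bp: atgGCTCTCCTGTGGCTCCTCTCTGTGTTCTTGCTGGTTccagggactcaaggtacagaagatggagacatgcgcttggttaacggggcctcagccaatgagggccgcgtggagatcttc
Loxl4: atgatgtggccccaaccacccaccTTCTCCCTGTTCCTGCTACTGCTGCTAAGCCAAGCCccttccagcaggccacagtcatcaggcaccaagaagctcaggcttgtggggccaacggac
Prelp: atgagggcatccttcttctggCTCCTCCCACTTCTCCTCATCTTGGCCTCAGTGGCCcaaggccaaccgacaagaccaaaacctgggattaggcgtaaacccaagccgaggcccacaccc
Memo1: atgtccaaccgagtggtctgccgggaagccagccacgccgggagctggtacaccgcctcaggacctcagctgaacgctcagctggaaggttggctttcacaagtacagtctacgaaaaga
Clk4: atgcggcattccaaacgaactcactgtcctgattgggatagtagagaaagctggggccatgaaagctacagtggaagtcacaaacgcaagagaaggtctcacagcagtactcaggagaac

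A protein was counted as having an N-terminal hydrophobic run when 12 consecutive residues among its first 40 had a mean Kyte-Doolittle hydropathy of at least 2, a crude stand-in for a signal peptide or a first membrane segment. Of the 12 lower genes named, 8 had it, with Loxl4 just inside the threshold at 2.09 and Robo1 just outside at 1.97. Among 15154 protein-coding genes tested with a coding sequence, 18.5% had such a run. Among the lower genes it was 128 of 181 (70.7%), and among the higher genes 0 of 52. A further 38 of the 181 lower genes (21%, against 20.4% of all) had no such run but a stretch of 19 residues elsewhere with a mean hydropathy of at least 1.6, a length typical of a membrane-spanning helix, a second measure added after the values were seen. Neither feature was found in 15 lower genes (8.29%, against 61.1% of all) and in 48 of the 52 higher genes. The shift is not limited to called genes. Above the median level, the median difference was -0.26 over 1342 genes with the run (78.2% of them negative), -0.04 over 1930 with only a stretch elsewhere and 0.07 over 6672 with neither. For genes with the run, the median was -0.27 on side A of the split and -0.25 on side B, and the change itself was -0.26 in mitochondria and -0.02 in nuclei. When protein-coding genes above the median level were divided into 4 equal groups by exonic length, the medians were 0.02 to 0.03, while 32, 49, 41 and 58 genes were lower from the shortest group to the longest. By gene length the counts were 35, 47, 34 and 64.

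**Figure D3:**
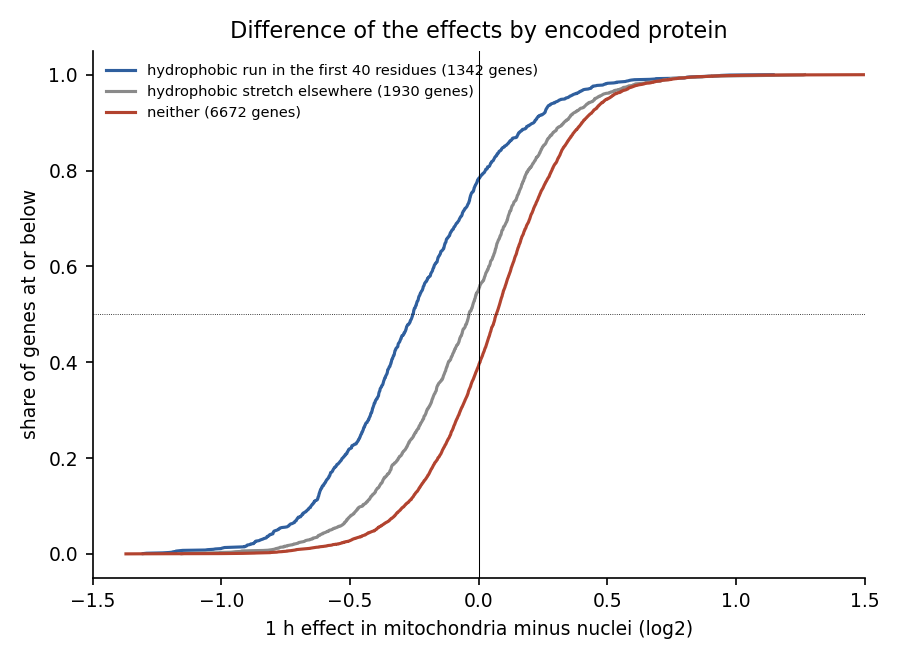
Cumulative share of genes (y axis) at or below each value of the difference of responses (x axis, log2), for protein-coding genes above the median level, grouped by hydrophobic features of the encoded protein. The curve of the 1342 genes with an N-terminal run lies to the left, with its median at -0.26, and that of the 6672 genes with neither feature to the right, with its median at 0.07.

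The lists of secreted, surface and endomembrane proteins moved in the same direction. Together the 5 lists hold 297 tested genes, of which 72 were lower and 0 higher (2 were higher and 156 lower at an unadjusted p under 0.05, and voom weights on recovered reads gave 1 higher and 88 lower). Over all 21078 genes tested, the shares were 0.892% lower and 0.327% higher. Their median difference was -0.37, against 0.01 over all genes tested, from -0.39 in mitochondria and -0.01 in nuclei. With the values as deposited the median was -0.11 (-0.44 relative to all genes), and with median centring -0.55. As deposited 3 were higher and 36 lower, where 1573 and 82 of all genes were. Leaving out mitochondria 0 h replicate 2 or nuclei 0 h replicate 2 left 2 and 3 genes lower.

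Matrix glycoproteins gave the largest list median, -0.58 over 51 genes, with 19 lower, against 0.892% of all genes tested. In mitochondria 27 of the 51 fell, and in nuclei 3 rose, against 3.74% and 1.01% of all genes tested. Mfge8, a secreted protein that bridges dying cells and phagocytes, stood at 5.90 and 5.99 in mitochondria at 0 h and at 5.2 and 5.17 at 1 h, while its nuclear libraries stayed within 5.48 to 5.70 and overlapped between the times (difference -0.85 ± 0.10, limma adjusted p = 0.0078). Clu, Tnc, Lox and Timp1, which encode clusterin, tenascin-C, lysyl oxidase and an inhibitor of matrix proteases, were lower by -0.74 to -0.89. Fn1, fibronectin, which overlaps Apol7d (also called lower) on the other strand, was lower at -0.66 ± 0.13 (limma adjusted p = 0.040). It rose in nuclei by 0.50, and the mitochondrial value of -0.16 did not pass, but with the values as deposited the changes were -0.34 and -1.0 in that order. On that scale the list had a median of -0.29 and 11 lower.

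Of 50 collagens and laminins, 41 did not pass and 15 had a positive difference. The median was -0.27 and 9 were lower, against 0.892% of all genes tested. These 9 were the collagen VI chains Col6a1 (-0.73) and Col6a2 (-0.74), Col12a1, Col5a1, Col18a1, the basement membrane chains Col4a1 (-0.52) and Col4a2 (-0.56), and the laminin chains Lama5 and Lamc1. Col6a1 stood at 6.71 and 6.76 in mitochondria at 0 h, at 5.99 and 5.90 at 1 h, and at 6.23 to 6.42 in the 4 nuclear libraries of these times. The mitochondrial libraries were above all 4 nuclear libraries at 0 h and below them at 1 h (difference -0.73 ± 0.09, limma adjusted p = 0.0088). With the values as deposited the list median was only -0.04, and 7 were lower and 1 higher. Col1a1 and Col1a2, of the fibroblast markers above, were not among the lower genes. On the quantile scale their differences were -0.07 and 0.35 (limma adjusted p = 0.74 and 0.0503).

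Plasma membrane receptors had a median of -0.42 over 79 genes, with 22 lower, against -0.12 and 11 with the values as deposited and 46 lower with median centring. Over all genes tested 0.892% were lower, with 82 genes lower as deposited and 691 with median centring. They included the adhesion receptors Itga3, Itga7, Itgb5 and Ncam1, the growth factor receptors Fgfr1 and Pdgfrb, the guidance receptors Robo1, Neo1, Unc5b and Plxna1, and the phosphatases Ptprf and Ptprk. Lrp1, a large endocytic receptor, was listed at 9.29 in both mitochondrial libraries of 0 h, at 8.58 and 8.64 at 1 h, and at 8.27 in all 4 nuclear libraries. The mitochondrial libraries were the highest at both times and fell between them. Quantile normalization sets the levels of the most abundant genes by rank, so values repeat there. The values as deposited gave a difference of -0.62 for Lrp1, against -0.68 ± 0.06 here (limma adjusted p = 0.0015). Epha2, an ephrin receptor, was also lower: its mitochondrial libraries were at 3.98 to 4.02 at both times, and its nuclear libraries rose from 4.0 and 3.84 to 4.65 and 4.61 (difference -0.73 ± 0.11, limma adjusted p = 0.0095). As deposited, it was the mitochondrial level that differed between the times, by -0.37, against 0.01 in nuclei.

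Lysosomal proteins had a median of -0.41 over 54 genes, with 13 lower, among them the hydrolases Gaa, Tpp1, Arsa, Arsb, Ctsa and Ctsd, and Igf2r, the receptor that carries hydrolases to lysosomes. As deposited, the median was -0.12 and 4 were lower. Beside the counts of this paragraph, 0.892% of all genes tested were lower, and 82 genes as deposited. Grn, progranulin, went from 5.2 and 5.27 to 4.42 and 4.37 in mitochondria and from 4.74 and 4.69 to 4.64 and 4.51 in nuclei, with both times apart in each preparation but the larger step in mitochondria (difference -0.70 ± 0.10, limma adjusted p = 0.0095). For Atp6v0a1, a proton pump subunit, the nuclear change of 0.45 passed and the mitochondrial change of -0.27 did not, and as deposited the changes were -0.26 and -0.61. ER machinery had a median of -0.26 over 63 genes, with 9 lower. In mitochondria 35 of the 63 fell, against 3.74% of all genes tested, while none passed in nuclei. The 9 comprise the chaperones Hsp90b1, Hyou1, Calr and Fkbp10, the collagen-modifying enzymes Plod1, Plod3 and Colgalt1, the glycoprotein quality-control enzyme Uggt1, and the oligosaccharyltransferase subunit Rpn2. With the values as deposited the median of this list turned to 0.03, which was -0.30 relative to all genes. Cholesterol and fatty acid synthesis, whose enzymes sit largely in the ER membrane, had a median of -0.19 over 34 genes with 3 lower, among them Sqle, and its median as deposited was 0.10 (-0.23 relative to all genes).

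**Figure D4:**
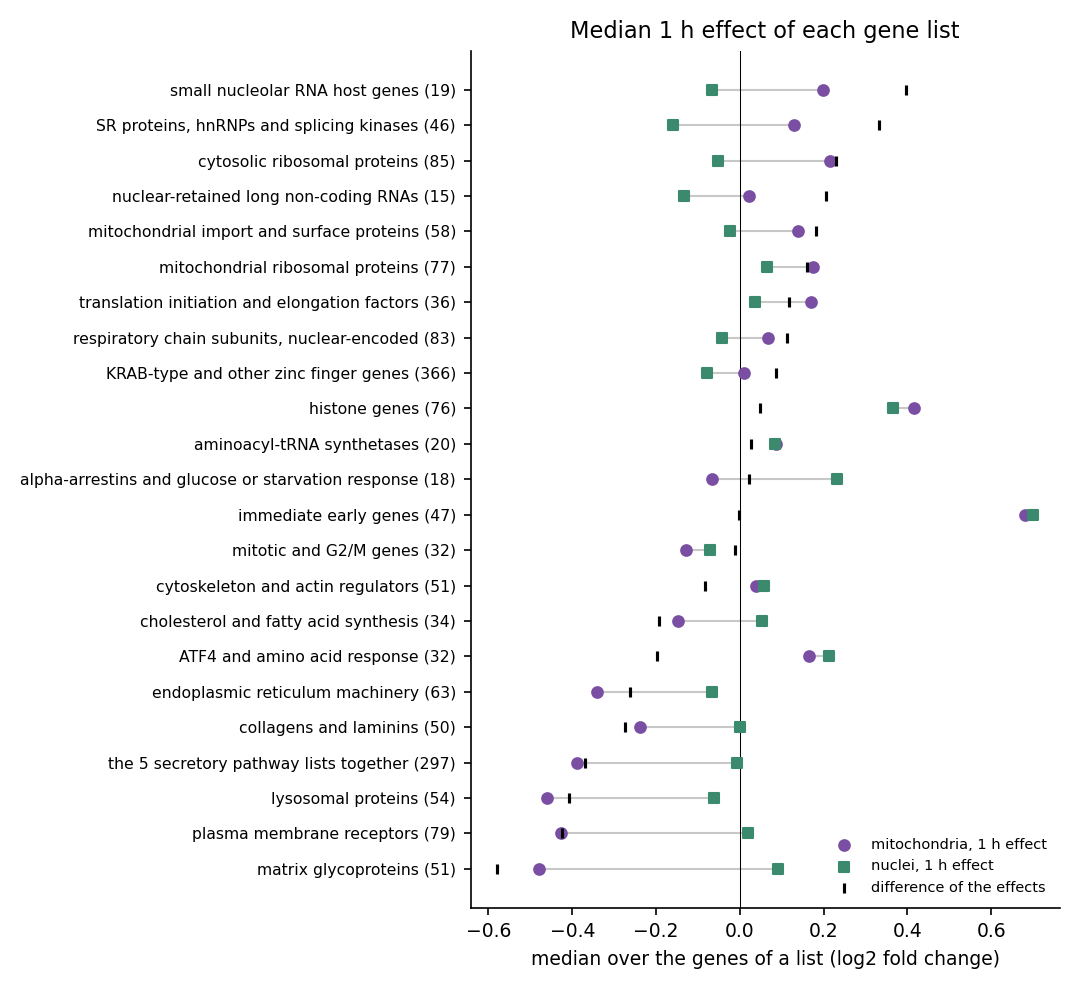
Median over the genes of each list of the change from 0 to 1 h in mitochondria (circles), the same in nuclei (squares) and the difference of responses (black ticks), as log2 fold change, with the number of genes tested in parentheses. Matrix glycoproteins are lowest at -0.58 and small nucleolar RNA host genes highest at 0.40, while immediate early genes lie at 0.68 and 0.70 in the preparations with a difference near 0.

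Among genes above the median level, the 12 with the most positive difference were Bc1 (1.84), Clk4 (1.12), Gjc3 (1.07), Rpph1 (0.94), Dnajc21 (0.83), Arl14ep (0.81), Gtf2h5 (0.77), Memo1 (0.76), Slc35a3 (0.74), Cisd2 (0.74), Nudcd2 (0.72) and Snhg4 (0.71). Of these, 3 encode no protein. On the quantile scale, in 11 of the 12 both mitochondrial libraries of 1 h were above both of 0 h, with Snhg4 the exception, where they overlapped, and in all 12 both nuclear libraries of 1 h were below both of 0 h. The change passed in mitochondria for 7 and in nuclei for 6. As deposited, 3 of the 12 were below 0 in mitochondria and all 12 in nuclei.

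Bc1, a small RNA made by RNA polymerase III that in rodent neurons represses translation at synapses, had the largest difference of the 12. Its 168 bases (chr7:144914470-144914637, plus strand) are printed from the same annotation, 5′ to 3′, with its run of 23 adenines in capitals, because it leads these 12 genes and has no protein to describe.
Bc1: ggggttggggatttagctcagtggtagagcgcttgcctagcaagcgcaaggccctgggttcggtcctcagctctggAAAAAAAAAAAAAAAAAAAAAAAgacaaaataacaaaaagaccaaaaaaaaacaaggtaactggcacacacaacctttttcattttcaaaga
Bc1 stood at 3.43 and 3.38 in mitochondria at 0 h and at 4.58 and 4.36 at 1 h, while nuclei went from 5.56 and 5.48 to 4.89 and 4.61. No group overlapped another in this comparison. Bc1 rose by 1.07 ± 0.10 in mitochondria (limma adjusted p = 0.00011) and fell by 0.77 ± 0.10 in nuclei (limma adjusted p = 0.0019), a difference of 1.84 ± 0.14 (limma adjusted p = 0.00035). The excess in nuclei was 2.12 at 0 h and 0.28 at 1 h. Its changes as deposited were 0.77 in mitochondria and -1.36 in nuclei, in the same directions.

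Rpph1, the RNA of ribonuclease P, which trims transfer RNA precursors, is also a polymerase III product, and it overlaps Ccnb1ip1 on the same strand, so their reads cannot be told apart. It stood at 6.42 and 6.62 in mitochondria at 0 h and at 7.01 and 6.82 at 1 h, against 9.92 and 9.64 and then 9.26 and 9.19 in nuclei, so it was more abundant in nuclei at either time. The difference was 0.94 ± 0.13 (limma adjusted p = 0.0095), but it did not pass with voom weights on recovered reads (adjusted p = 0.18). As deposited, its mitochondrial change was -0.01. Clk4, a kinase of splicing factors, overlaps BC049762 on the other strand. It fell in nuclei from 3.0 and 2.83 to 1.99 and 2.26, and in mitochondria it went from 1.99 and 2.10 to 2.36 and 2.39, a change that did not pass. Its difference was 1.12 ± 0.20 (limma adjusted p = 0.023).

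Among 46 genes of SR proteins, hnRNPs and splicing kinases, which bind pre-mRNA and choose splice sites, 11 were higher, 35 did not pass and 0 were lower (1 was lower at an unadjusted p under 0.05, and 1 with voom weights), and the median was 0.33. Of all genes tested, 0.327% were higher and 0.892% lower. The 11 of the list were Clk4, Pnisr, Tra2a, Srsf1, Srsf3, Srsf6, Srsf7, Hnrnpd, Hnrnpa2b1, Hnrnpab and Ddx17. Hnrnpab went from 6.46 and 6.57 to 7.0 and 6.85 in mitochondria, apart between the times, and from 6.84 and 6.77 to 6.69 and 6.66 in nuclei (difference 0.54 ± 0.09, limma adjusted p = 0.016), and it overlaps Phykpl on the other strand. Ddx17, an RNA helicase, fell in nuclei from 6.30 and 6.22 to 5.52 and 5.33, and its mitochondrial value of -0.26 did not pass. Its gene overlaps Kdelr3 on the other strand. The list's count fell to 0 to 5 when 1 library of 0 or 1 h was left out, to 0 without either nuclear library of 0 h, replicate 2 of mitochondria at 0 h or replicate 1 of mitochondria at 1 h, to 2 without replicate 2 of mitochondria at 1 h, and to 5 without any 1 of the others.

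Small nucleolar RNA host genes, whose introns carry guide RNAs for ribosomal RNA modification, had the largest positive median, 0.40 over 19 genes, with Snhg1, Snhg3 and Snhg4 higher. Their reads can include those of the small RNAs inside them. Beside this list and the next, 0.327% of all genes tested were higher. Of 15 nuclear-retained long non-coding RNAs, Malat1 was higher (0.50 ± 0.10, limma adjusted p = 0.038). It went from 9.64 and 9.55 to 9.09 and 9.09 in nuclei and lay within 8.52 to 8.71 in mitochondria, where the times overlapped. As deposited, its change was -1.11 in nuclei and -0.53 in mitochondria. It did not pass with voom weights (adjusted p = 0.11), nor with median centring, where it was 0.15. Neat1, the scaffold of paraspeckles, fell by 1.20 in nuclei and by 0.75 in mitochondria, and its difference of 0.45 ± 0.12 did not pass (limma adjusted p = 0.11).

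Cytosolic ribosomal protein genes had a median of 0.23 over 85 genes, with Rps3 (0.44) and Rack1 (0.36) higher, but 62 of the 85 have a processed pseudogene copy whose reads cannot be told apart, and genes with such copies differ between the sides of the split. Of 36 translation factors, Eif4a2, Eif5a and Eif4g2 were higher and the median was 0.12, which turned to -0.02 with median centring. Among 51 cytoskeleton and actin regulators, 2 were lower, among them Ahnak (-0.32). Vim, the intermediate filament vimentin of progenitors, and Tubb5, a tubulin, were higher here and reversed with median centring, to -0.13 and -0.22. The list median of -0.08 turned to 0.17 with the values as deposited. Beside the counts of these lists, 0.327% of all genes tested were higher and 0.892% lower.

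On the quantile scale 8 genes changed in opposite directions in the preparations, with the change past the threshold in both, among 151 that passed in both. The opposition depends on that scale: as deposited, all 8 had a nuclear change below 0 and 7 a mitochondrial change below 0, so that Bc1 alone kept opposite directions. Hspg2, Lmf2, Pigt and Il17ra fell in mitochondria and rose in nuclei on the quantile scale, and 4 genes, among them Bc1, Rpph1 and Txn1, did the reverse. Hspg2, the basement membrane proteoglycan perlecan (chr4:137468769-137570630), stood at 9.26 in both mitochondrial libraries of 0 h and at 8.91 and 8.81 at 1 h, and in nuclei at 8.17 in both libraries of 0 h and at 8.47 and 8.38 at 1 h. The preparations approached each other without crossing (difference -0.65 ± 0.06, limma adjusted p = 0.0025, and -0.65 with the values as deposited, where the changes were -0.96 in mitochondria and -0.31 in nuclei). Il17ra, an interleukin receptor chain, was at 3.39 to 3.41 in all 4 libraries of 0 h, and at 1 h it stood at 3.04 and 3.09 in mitochondria and at 3.78 and 3.82 in nuclei, so the preparations lay close at 0 h and apart at 1 h (difference -0.73 ± 0.12, limma adjusted p = 0.019). Pigt and Lmf2, both proteins of the ER membrane, had differences of -0.85 ± 0.12 and -0.80 ± 0.10. Txn1, thioredoxin, had 0.62 ± 0.08.

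Of 47 immediate early genes, the transcription factors and regulators induced within minutes of a stimulus, 25 rose in mitochondria and 24 in nuclei, with medians of 0.68 and 0.70, and the difference was called for 0 (1 was higher and 6 lower at an unadjusted p under 0.05, voom weights called 1 lower, the values as deposited 8 higher and median centring 3 lower). Egr1 rose by 2.14 and by 2.05, a difference of 0.08 ± 0.14. The smallest p in the list was that of the clock gene Per2, whose rise of 0.65 in mitochondria and 1.28 in nuclei gave a difference of -0.62 ± 0.15 that did not pass (limma adjusted p = 0.082). Arrdc3, an alpha-arrestin, an adaptor of receptor trafficking, went from 0.69 and 0.72 to 4.37 and 4.18 in mitochondria and from 1.13 and 0.89 to 4.47 and 4.35 in nuclei, a difference of 0.17 ± 0.18. The 18 genes of its list had medians of -0.07 in mitochondria and 0.23 in nuclei and 0 calls, with 1 higher and 1 lower at an unadjusted p under 0.05 none with voom weights and 3 higher as deposited. Of 32 ATF4 and amino acid response genes, Slc3a2, an amino acid transporter chain, was lower at -0.52 ± 0.11 (limma adjusted p = 0.049): it rose in nuclei by 0.51, and its mitochondrial value was -0.01, against -0.14 and -0.35 as deposited. The median of this list, -0.20, turned to 0.08 with the values as deposited. Histone genes, 76 in all, had medians of 0.42 and 0.36 with 0 calls, 5 higher and 4 lower at an unadjusted p under 0.05, 1 higher with voom weights and 17 as deposited. Their median of 0.05 turned to -0.08 with median centring. Of all genes tested, 0.327% were higher and 0.892% lower, so 0 calls in lists of these sizes lies near those shares.

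The lists of nuclear-encoded mitochondrial proteins had 0 calls in either direction on the quantile scale. The median was 0.11 over 83 respiratory chain subunits, 0.16 over 77 mitochondrial ribosomal proteins and 0.18 over 58 import and surface proteins. At an unadjusted p under 0.05, 11, 5 and 12 of them were higher and 4, 0 and 1 lower, and voom weights called 1 respiratory chain subunit higher and no other. On the deposited values 14, 19 and 21 of them were higher, where 1573 of all genes were. A term for the split called 3, 0 and 1 higher, and median centring called 2 respiratory chain subunits lower. The smallest adjusted p among them was 0.090, for Ndufs1, a complex I subunit (0.45 ± 0.11). Tomm22, an import receptor of the outer membrane, had 0.48 ± 0.14 (limma adjusted p = 0.15). There were also 0 calls among 32 mitotic genes (median -0.01), 20 aminoacyl-tRNA synthetases (0.03, or -0.10 with median centring) and 366 zinc finger genes (0.09), where 2, 2 and 25 were higher and 2, 1 and 8 lower at an unadjusted p under 0.05, and voom weights called none. As deposited 7, 5 and 27 were higher. Of all genes tested, 0.327% were higher and 0.892% lower on the quantile scale, and at those shares lists of these sizes would hold few calls.

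The median level in mitochondria minus that in nuclei of the 188 lower genes was 0.33 at 0 h, -0.33 at 1 h and -0.07 at 2 h, and of the 69 higher genes -0.33, 0.28 and 0.05. Past the threshold, 89 of the lower genes were above nuclei at 0 h and 102 below at 1 h, and of the higher genes 30 were below at 0 h and 33 above at 1 h. Of all genes tested, 1.04% were above and 0.882% below nuclei at 0 h, and 1.69% and 2.23% at 1 h. The values at 0 and 1 h are those that chose the genes, and the 2 h libraries had no part in the contrast, though they share in the normalization and the estimate of the spread. At 2 h, 11 of the lower genes were above and 11 below nuclei past the threshold, and of the higher genes 7 and 13, against 0.731% and 1.6% of all genes tested. Some members lay far apart at 2 h, with Rpph1 at -2.50 and Bc1 at -0.51. Ecm1 was at 4.07 and 4.32 in mitochondria and at 3.90 and 4.03 in nuclei at 2 h, between its mitochondrial values of 0 and 1 h. The difference of responses from 0 to 2 h passed for 1 gene higher (0.00474%) and for 0 lower, with 2056 genes at an unadjusted p under 0.05, and voom weights gave 18 and 43. Median centring gave 26 and 283, a term for the split 76 and 132, and a mean of at least 50 reads 59 and 102. It shares its 0 h libraries with the 1 h difference, so its medians of -0.37 over the lower and 0.36 over the higher genes are a description only. No called gene passed for the step from 1 to 2 h, so the 1 h and 2 h differences are not shown to differ.

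On each side of the split the called genes had the same sign, 257 of 257, against 54.0% of all genes tested, as a description only, since the genes were called from these same libraries. Ecm1 was at -1.25 on side A and -1.11 on side B, Nucb1 at -0.98 and -1.02, Lrp1 at -0.71 and -0.66, and Bc1 at 1.87 and 1.81. Fbn2, at -1.65 and -0.98, and Gjc3, at 1.39 and 0.76, were among the named genes whose sides lay farther apart. With 1 library of 0 and 1 h per group on side B, and the spread taken from the 2 h libraries, limma called 0 genes in either direction, with 2356 at an unadjusted p under 0.05.

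**Figure D5:**
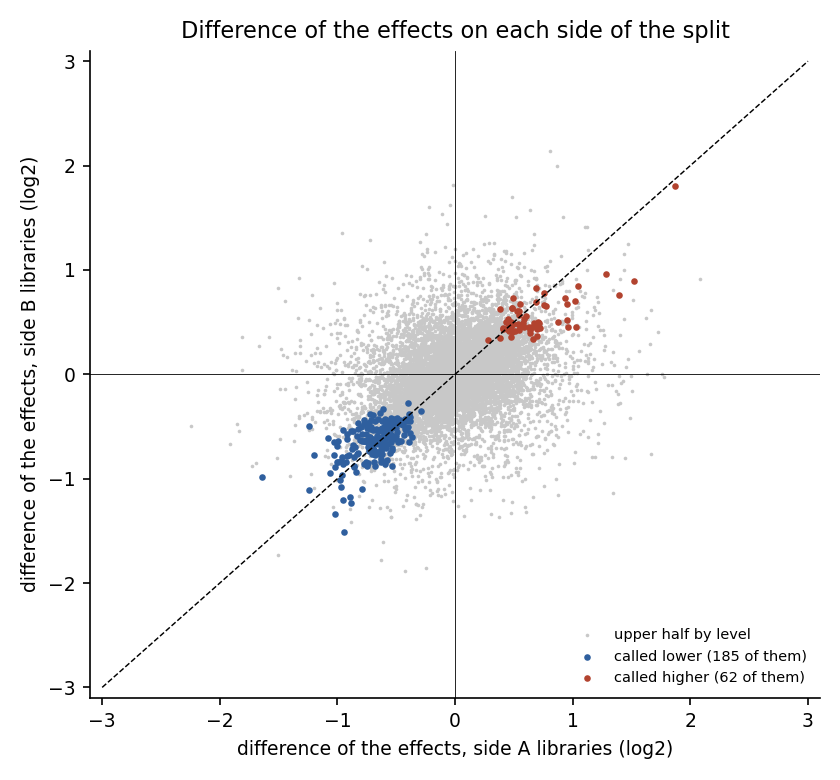
Difference of responses from the 4 libraries of side A (x axis) and from those of side B (y axis), in log2, for genes above the median level; each point is 1 gene and the dashed line marks equality. The called genes, 185 lower and 62 higher above that level, lie in the quadrants where both sides share the sign, and the uncalled genes gather about 0.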

How the data were processed

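RNA from isolated mitochondria and nuclei of C17.2 cells was sequenced after ribosomal RNA depletion with the NEBNext Ultra II kit, per the labels' protocols. Per the submitters' processing notes, the tools were HISAT2, edgeR and StringTie and the builds mm10 and GRCm38, with no versions, roles or order; exon and strand settings are not given in the sources used here. The authors deposited a SeqMonk gene table in log2 RPM, per its name and values. Each library's lowest value was read as 0.9 read, which turned at least 99.99% of values into whole reads within 0.05. The FPKM values of the transcript table, deposited by the authors per the file headers, served only for the mitochondrially encoded share, in 11 libraries; nuclei 1 h replicate 1 was not used on that scale. Of 35373 entries, 52 repeated a gene and were left out.

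Genes above that lowest value in at least 2 libraries were quantile normalized and fitted with limma 3.58.1 (R 4.3.3; variance trend, robust moderation) with 6 group means over all 12 libraries. Scripts were tested on simulated data. Hydropathy was computed from GENCODE M21 coding sequences; 35250 identifiers matched. Named genes were the 12 largest calls in each direction above the median level, with the same sign on both sides, no predicted name and no processed pseudogene, plus the 8 called in opposite directions. A few genes are not reported here. List examples were the members of smallest p.

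The members, the 22 lists and the rules were chosen with earlier results of these data known. The 19-residue measure, the union of 5 lists, the splicing count, the genes plotted by library, 3 alternatives and other genes named outside these rules were chosen after their values were seen. Alternatives changed the scaling, the filter, the error model and the libraries used. Totals of reads bound counting error only.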

Additional observations from a re-analysis of the deposited data

Results flagged for a closer look

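The 1 h effect differed between mitochondria and nuclei by limma's test of the difference itself for each of the 30 genes chosen by the rule for named genes, of which 29 are given here. The value is the difference of responses in log2, and each adjusted p was under 0.05. Lower in mitochondria were Fbn2 (-1.31), Ggt1 (-1.23), Prelp (-1.18), Ecm1 (-1.18), Cd82 (-1.06), Loxl4 (-1.03), Lgals3bp (-1.02), Robo1 (-1.0), Nucb1 (-1.0), Mfsd10 (-0.99), Cachd1 (-0.96), Man2b2 (-0.95), Pigt (-0.85), Lmf2 (-0.80), Il17ra (-0.73) and Hspg2 (-0.65). Higher in mitochondria were Bc1 (1.84), Clk4 (1.12), Gjc3 (1.07), Rpph1 (0.94), Dnajc21 (0.83), Arl14ep (0.81), Gtf2h5 (0.77), Memo1 (0.76), Slc35a3 (0.74), Cisd2 (0.74), Nudcd2 (0.72), Snhg4 (0.71) and Txn1 (0.62).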

How the results depend on the processing

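As reported, there were 69 genes higher and 188 lower, 72 lower in the 5 secretory lists, 11 higher in the splicing list, and the share of lower genes with an N-terminal run was 70.7%; the following alternatives moved at least 1 of these, and the cause was not tested. Values follow in that order, and those within 1.5 times (or the binomial interval of the share) are left out. The values as deposited gave 1573, 82, 36 and 25, and with a term for the split 1596, 70, 32, 32 and 81.7%. Median centring gave 691 lower, 145 in the secretory lists and 48.4%, and with a term for the split 673 lower, 147 secretory and 48.0%; in both, Vim turned to -0.13 and Tubb5 to -0.22. Testing all genes in the table gave 104 lower, 31 secretory, 2 splicing and 59.1%, and a mean of at least 50 reads gave 206 higher, 449 lower, 110 secretory and 60.0%. A term for the split gave 224, 390, 110, 19 and 58.3%. The 8 libraries of 0 and 1 h gave 1, 2, 2, 0 and 100% (of 2 lower genes), and with a term for the split 144 higher, 304 lower and 61.6%. Fits with no trend and no robust moderation gave 2, 1, 0 and 0, and side B with the 2 h libraries 0 for all 4 counts; neither gave a share of genes with the run. Leaving out 1 library gave 1 to 42 higher, 2 to 135 lower, 2 to 56 secretory, 0 to 5 splicing and 70.2 to 100% (the latter of 2 or 3 lower genes). Quantile normalization within each preparation (56 and 214) and voom weights (99 and 266) stayed within 1.5 times.

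Same-numbered libraries of 0 and 1 h deviated together or apart (correlations -0.75 to 0.76) and were unrelated to those of 2 h. The signs at 0 and 1 h follow the sides of the split, so they cannot show whether the numbers pair cultures. With the replicate block the counts were 60 and 168. The numbers of mitochondria at 0 h ran against those of the other groups of 0 and 1 h, and the crossed pairing is the term for the split (224 and 390).

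Of the 30 genes chosen by the rule, 0 to 30 kept their call over the alternatives, and 2, 4 and 10 did so without replicate 2 of mitochondria at 0 h, replicate 2 of nuclei at 0 h and replicate 1 of nuclei at 0 h. Calls concentrate at high levels: with protein-coding genes above the median level divided into 4 equal groups by level, the highest group held 38 higher and 131 lower and the lowest 1 and 2; the median SE was 0.40 over all genes and 0.19 above the median level. With 2 libraries per group, p-values measure the spread between these preparations only. That spread is estimated over all 12 libraries, the closer pairs of 2 h included. The SE and p-values are therefore not those of the 0 and 1 h libraries alone.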
